A study of Homo sapiens with 3 samples.

Results

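The genes described here are 45 genes of mitosis and the spindle, chosen by name as mitotic kinases and their partners, kinesins, kinetochore proteins and cytokinesis factors. They were taken from a table of 29689 gene symbols measured by RNAseq in xenograft tumors, and all 45 were listed with a value above 0 in every tumor. The tumors grew from SUM-149, an established triple-negative breast cancer (TNBC) cell line, injected with Matrigel into the mammary fat pads of female Nu/Nu mice, which lack T cells but keep other host cells. There was 1 library per condition. The vehicle tumor received no inhibitor, the CDK2i tumor was treated for 10 days with dinaciclib, which blocks CDK2 and also CDK1, CDK5 and CDK9, and the EZH2i tumor was labelled as treated for 10 days with EPZ6438. For SUM-149 xenografts in its growth experiments the study names GSK343 as the EZH2i, so the drug of this library rests on the label alone. With 1 library per condition none of the differences below has a replicate error, and no p-value was computed.

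Mitosis is driven by CDK1 bound to cyclin B, which with the Polo and Aurora kinases starts chromosome condensation and the assembly of the spindle from microtubules. Kinetochores tie chromosomes to the spindle, the spindle checkpoint holds the anaphase promoting complex (APC/C) inactive until every kinetochore is attached, and the midzone and contractile ring then part the daughter cells. Most of these genes are transcribed mainly in the G2 and M phases, under FOXM1 and the MuvB complex, so in a bulk tumor their mRNA is widely read as a measure of cycling cells. Fewer cells in G2 and M and less RNA per cell cannot be told apart in such data.

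Levels are given as FPKM, fragment numbers scaled by the length of the gene and the depth of the library, and differences as differences of log2 FPKM between tumors. Low FPKM values fell on steps of 1 fragment, which placed the depth at about 16785157 fragments for vehicle, 19140506 for CDK2i and 17522505 for EZH2i. By this depth, the 45 genes held between 84 and 7385 fragments in a tumor. The widest 95% counting interval of a difference from vehicle had a half-width of 0.37 on the log2 scale (exact binomial intervals). This interval covers counting error only. As a stand-in for the missing replicate error, each gene has a spread, the SD of EZH2i minus CDK2i values among the 200 expressed genes of most similar mean level, which ran from 0.63 to 1.10 and holds drug effects as well as noise. A call of higher or lower needed a fold above 2 between the tumors and more than log2 FPKM 3, or 8 FPKM, in the tumor with more. This minimum was passed by 31 of the 45 genes in vehicle, by 23 in CDK2i and by 40 in EZH2i.

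The carcinoma markers EPCAM, KRT5, KRT14, KRT17, KRT18 and CDH1 were all above the minimum, with summed levels of 5079 FPKM in the vehicle tumor, 12166 with CDK2i and 4787 with EZH2i, while ESR1 and PGR together stayed at or below 1.10 FPKM, with PGR at 0 in vehicle. Of the host cell lists, 2 of 6 fibroblast markers passed the minimum (24.4, 38.3 and 28.8 FPKM summed, in the same order). None of 5 macrophage markers did (3.30, 3.15 and 2.37 FPKM, with CD68 and CD163 at 0 in 2 tumors each), nor did any of the 3 endothelial (0.833, 0.730 and 0.466 FPKM) and 4 lymphocyte markers in the table (0.424, 0.0809 and 0.271 FPKM, with CD3E at 0 in 2 tumors and PTPRC, CD79A and NKG7 in 1 each). The host is a mouse, while the values are for human gene symbols on the hg19 build, and the treatment of mouse reads is not given. These low values therefore do not measure how many host cells the tumors held. The part of host cells in the results was not tested.

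The EZH2i tumor had the highest level of the 3 tumors for all 45 genes. In the CDK2i tumor 39 of the 45 were lower than in vehicle. Summed over the 45 genes, the level was 810 FPKM in the vehicle tumor, 622 with CDK2i and 1441 with EZH2i. The median gene stood at 12.1 FPKM in the vehicle tumor, 8.21 with CDK2i and 23.8 with EZH2i. Over the 11109 expressed genes of the table, which had 0 FPKM in no tumor and a log2 FPKM averaging above 1, 61.5% were higher in EZH2i than in vehicle, 66.9% were higher in EZH2i than in CDK2i and 33% lower, and 58% were lower in CDK2i than in vehicle and 41.9% higher. In EZH2i 38.5% were lower than in vehicle. The order CDK2i below vehicle below EZH2i held for 39 of the 45 genes, or 86.7%, against 33.8% of the expressed genes. Both inhibitor tumors were compared with the same vehicle library, so their differences from it are not independent of each other.

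**Figure D1:**
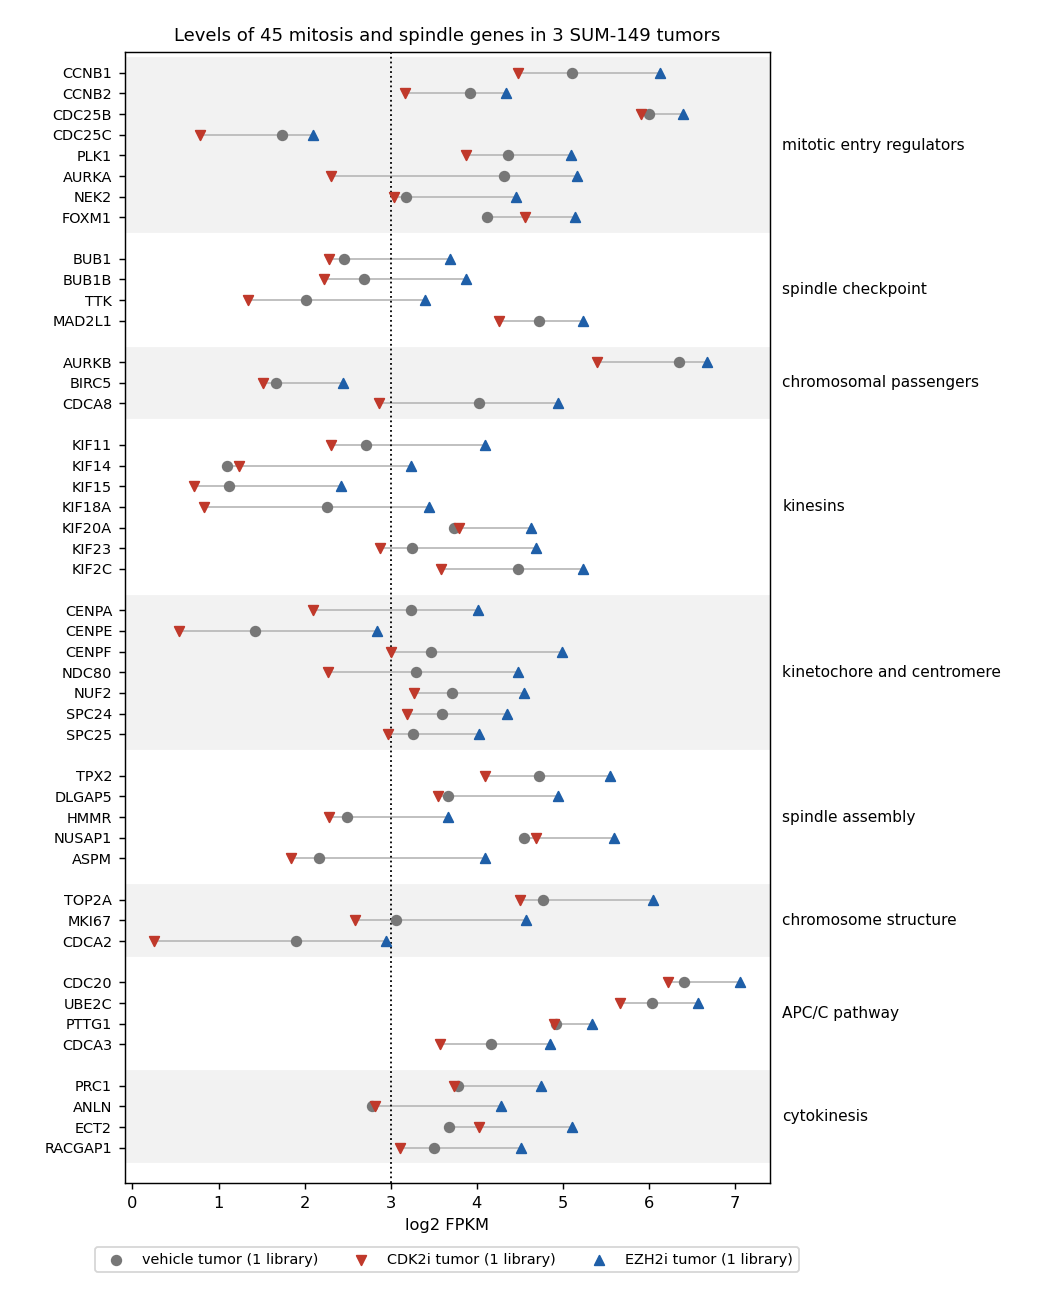
Level of each of the 45 genes on the x axis (log2 FPKM) in the vehicle (circle), CDK2i (triangle pointing down) and EZH2i tumor (triangle pointing up), 1 library each, grouped by role. The dotted line is the expression minimum at log2 FPKM 3. The EZH2i value is the highest in all 45 rows and the CDK2i value the lowest in 39.

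The median difference over the 45 genes was −0.41 in CDK2i, against −0.11 over all expressed genes, and 1.02 in EZH2i, against 0.19. Between the inhibitor tumors it was 1.40, a fold of 2.65, against 0.35 over all expressed genes. In CDK2i, 4 of the 45 genes were called lower, AURKA, CDCA8, CENPA and NDC80, and 0 higher. Among all genes above the minimum in this pair 8.07% were called lower and 3.27% higher, and of the genes above the minimum in vehicle 8.56% were called lower. The 4 calls, 12.9% of the 31 genes above it, lay near this background. Most of the 39 genes that were lower thus differed by less than the fold threshold. The difference exceeded the gene's spread for 8 genes, the 4 above and AURKB, KIF2C, KIF18A and CDCA2, or 17.8% of the 45, and all 8 were lower. Of all expressed genes 14.1% were lower and 5% higher beyond their own spread, so this share too lay near the background. In EZH2i, 21 of the 45 were called higher and 0 lower, against 8.93% and 4.42% of the genes above the minimum in the pair. Of these 21, 9 reached the minimum in the EZH2i tumor only and could not have been called lower. Of the 31 genes already above the minimum in vehicle, 12 were called higher, or 38.7%, against 3.46% of all 6251 such genes. The EZH2i difference exceeded the spread for 32 genes, all higher, or 71.1% of the 45, against 15.1% of the expressed genes higher and 7.1% lower beyond theirs. Between the inhibitor tumors 32 genes were called higher in EZH2i and 0 lower, against 17.5% and 6.53% of all genes above the minimum in the pair. Of the 23 genes above the minimum in CDK2i already, 15 were called higher, or 65.2%, against 6.01% of 5757. The difference was beyond the spread for 41 of the 45, or 91.1%, all higher in EZH2i, against 27% of the expressed genes higher and 8.79% lower.

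Other scalings left the EZH2i directions as they were and turned some of the CDK2i ones. With each library centred on its median expressed gene, which shifts all genes of a library by the same amount, all 45 genes stayed higher in EZH2i than in vehicle and the median was 0.77. In CDK2i 31 genes stayed lower after centring, 34 with the summed FPKM made equal, and 43 when ribosomal protein genes and genes of the mitochondrial genome were left out of those sums. Taken less the median difference of all expressed genes, a shift other than that of centring, the 45 genes had a median of −0.30 in CDK2i and 0.83 in EZH2i. Among all calls of the table, the upward share with the deposited scaling was 28.9% for CDK2i and 66.9% for EZH2i, and after centring 50.7% and 31.8%. The shares were 46.8% and 88.7% with equal sums, and 17.4% and 71.9% when the sums left out the ribosomal protein and mitochondrial genes. The median expressed gene moved from −0.11 to 0.07, 0.04 and −0.26 for CDK2i under these 3 scalings, and from 0.19 to −0.06, 0.43 and 0.23 for EZH2i.

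**Figure D2:**
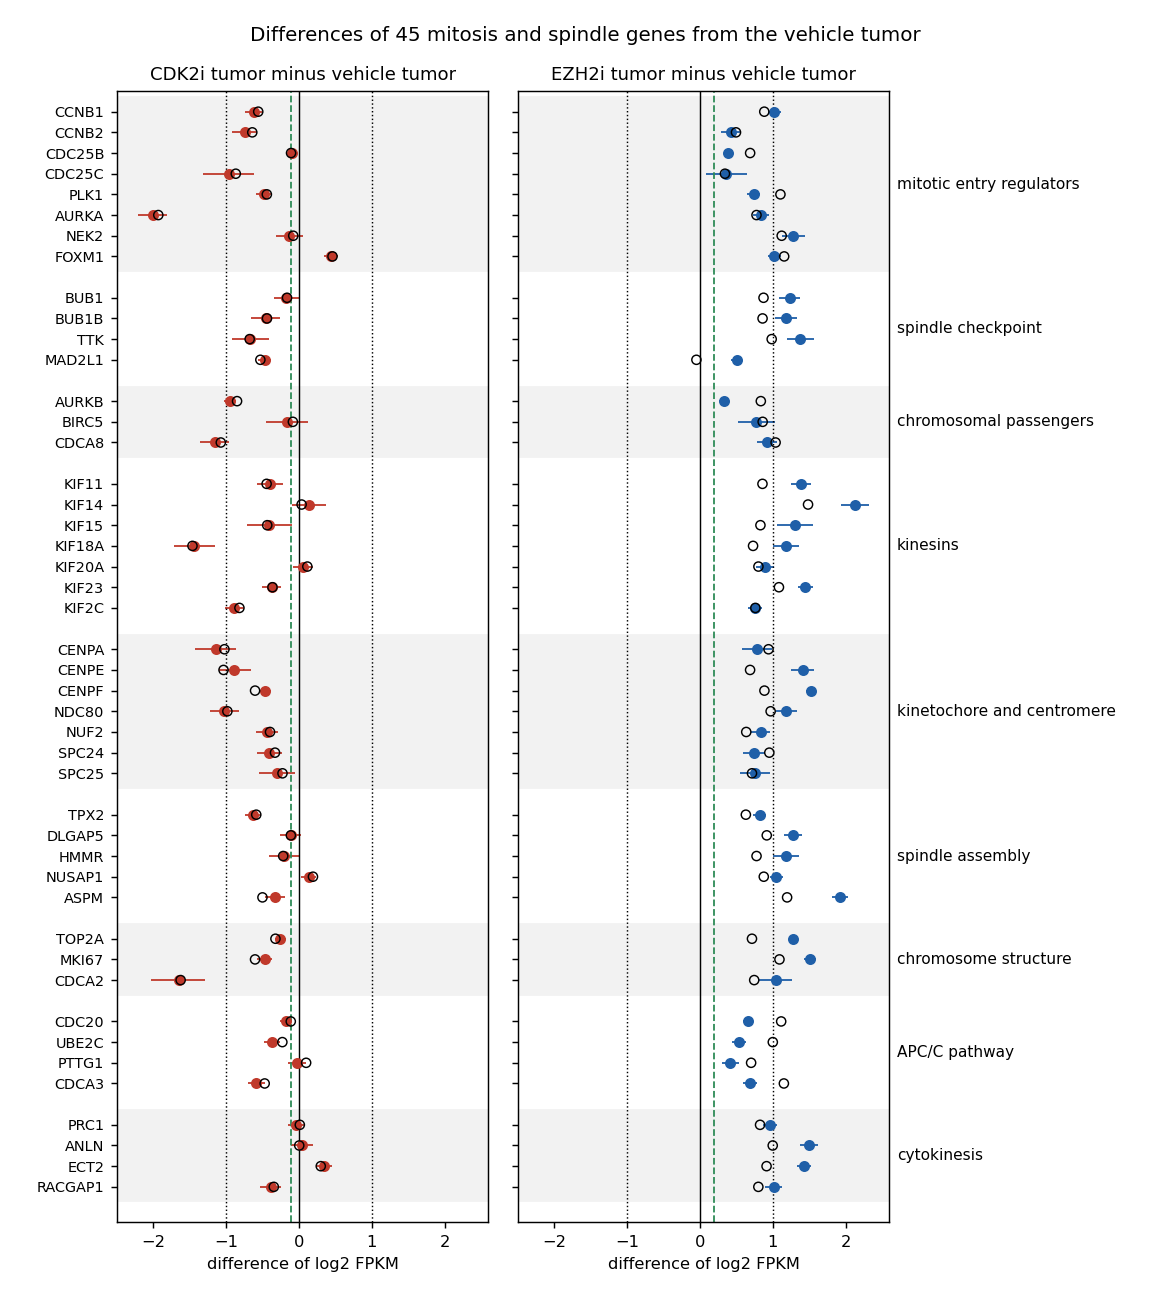
Difference from the vehicle tumor on the x axis (log2 FPKM) for each of the 45 genes, in the CDK2i tumor on the left and the EZH2i tumor on the right, 1 library each. Bars are 95% counting intervals, open circles are the values after removal of the GC and length trend, dotted lines mark the fold threshold and the dashed line the median of all expressed genes. Values on the left run from −2.01 to 0.44 and on the right from 0.33 to 2.13.

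The promoters of these genes are known for 2 elements, the CHR, which binds the MuvB complex and lies close to the transcription start, and the CCAAT box, which binds NF-Y and lies upstream of it. A promoter of 250 bases before and 50 after the start was listed by RefSeq (GRCh38.p14) for 37 of the 45 genes. AURKA, FOXM1, TTK, BIRC5, TPX2, CDCA2, UBE2C and RACGAP1 were not matched. The letters TTTGAA or TTCGAA, used for the CHR, were found on either strand in 29 of the 37, or 78.4%, against 19.5% of 27305 genes with such promoters. Within 50 bases of the start they were found in 25 of the 37, or 67.6%, against 6.24%. CCAAT was found on either strand in 30 of the 37, or 81.1%, against 39.7%, and at 2 or more places in 20, or 54.1%, against 12.9%. Both kinds stood together in 24, or 64.9%, against 7.85%. A gene counted when any of its listed promoters held the letters, and a match is a description and not a binding site.

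The 140 bases before the start are shown for 7 genes that carry both elements and whose levels differed in unlike ways. CCNB2 and PLK1 are classical genes of mitotic entry, and CENPA and CDCA8 were called lower in CDK2i. KIF18A was lower in CDK2i than in vehicle beyond its spread, with both values below the expression minimum. MKI67 was called higher in EZH2i, and PRC1 hardly differed between CDK2i and vehicle. Capitals mark TTTGAA and CCAAT, with ATTGG for CCAAT on the opposite strand. Coordinates are those of GRCh38.p14, and each sequence reads 5′ to 3′ towards the gene.
CCNB2 (chr15:59105006-59105145, plus strand): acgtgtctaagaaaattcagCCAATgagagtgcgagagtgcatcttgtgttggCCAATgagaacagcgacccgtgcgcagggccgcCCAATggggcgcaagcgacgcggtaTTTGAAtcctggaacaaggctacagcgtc
PLK1 (chr16:23678749-23678888, plus strand): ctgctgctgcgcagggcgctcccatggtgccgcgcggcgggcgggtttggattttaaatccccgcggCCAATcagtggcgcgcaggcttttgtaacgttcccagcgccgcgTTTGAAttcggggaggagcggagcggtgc
CENPA (chr2:26785916-26786055, plus strand): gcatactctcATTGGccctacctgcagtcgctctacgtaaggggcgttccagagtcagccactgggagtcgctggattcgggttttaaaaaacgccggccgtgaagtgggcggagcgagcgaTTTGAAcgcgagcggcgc
CDCA8 (chr1:37692376-37692515, plus strand): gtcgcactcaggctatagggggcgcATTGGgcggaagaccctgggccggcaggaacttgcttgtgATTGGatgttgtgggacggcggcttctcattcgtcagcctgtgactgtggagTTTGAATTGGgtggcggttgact
KIF18A (chr11:28108157-28108296, minus strand): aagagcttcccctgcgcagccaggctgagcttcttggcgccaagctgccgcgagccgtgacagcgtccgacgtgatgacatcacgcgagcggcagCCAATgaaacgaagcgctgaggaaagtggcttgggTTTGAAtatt
MKI67 (chr10:128126424-128126563, minus strand): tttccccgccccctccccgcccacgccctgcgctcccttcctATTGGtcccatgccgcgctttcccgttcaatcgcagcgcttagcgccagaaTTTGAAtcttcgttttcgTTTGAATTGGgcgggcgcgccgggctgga
PRC1 (chr15:90994536-90994675, minus strand): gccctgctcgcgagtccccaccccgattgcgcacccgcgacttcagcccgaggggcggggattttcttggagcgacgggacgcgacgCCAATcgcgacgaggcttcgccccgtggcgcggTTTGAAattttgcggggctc
In these 7 the TTTGAA nearest to the start began between 10 and 29 bases before it. In CDCA8 and MKI67 it overlapped a CCAAT on the opposite strand. CCNB2 had CCAAT at 120, 87 and 54 bases before the start, a regular spacing ahead of TTTGAA at 29. PLK1 held CCAAT at 73 and TTTGAA at 29, and PRC1 held them at 53 and 20. PRC1 and KIF18A, with the same letters at similar places, differed by −0.04 and −1.44 in CDK2i. Over all matched genes, the median difference was −0.40 in CDK2i and 1.18 in EZH2i for the 29 with the CHR letters, and −0.52 and 0.83 for the 8 without, with 1.40 and 1.35 between the inhibitor tumors. These differences between the sets were not tested.

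Among the regulators of mitotic entry, AURKA differed most. AURKA encodes Aurora A, the centrosomal kinase that activates PLK1 and builds the spindle poles (chromosome 20 of GRCh37, 54944445 to 54967393). The gene was at 19.9 FPKM in the vehicle tumor, 4.94 with CDK2i and 35.7 with EZH2i. The CDK2i value was 4.03 times lower than vehicle, a log2 difference of −2.01 (95% counting interval −2.21 to −1.82, spread 0.71), and was the furthest below vehicle of the 45 genes. EZH2i exceeded CDK2i by 2.85, also the largest value of the set. CCNB1, which encodes cyclin B1, was at 34.4, 22.3 and 69.8 FPKM in vehicle, CDK2i and EZH2i, and CCNB2, its cyclin B2 counterpart, at 15.1, 9.0 and 20.3. The cyclins were thus ordered alike over the tumors, but EZH2i exceeded vehicle by 1.02 for CCNB1 and by 0.42 for CCNB2. PLK1, the Polo kinase that promotes entry and centrosome maturation, was at 20.5, 14.6 and 34.2 FPKM. CDC25B, a phosphatase that activates CDK1, differed little between the tumors, at 63.9, 60.05 and 83.7 FPKM. CDC25C, of the same phosphatase family, was low at 3.33, 1.72 and 4.26 FPKM and below the minimum in all 3 tumors. NEK2, a kinase of centrosome separation, was at 9.03, 8.21 and 22 FPKM, so that it was close to vehicle in CDK2i and 1.28 higher in EZH2i.

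FOXM1 encodes the transcription factor that activates many of the other genes in G2, and it did not follow them in CDK2i. It was at 17.4 FPKM in the vehicle tumor, 23.6 with CDK2i and 35.2 with EZH2i. It was the gene with the highest CDK2i difference of the set, 0.44 (counting interval 0.35 to 0.54), within its spread of 0.63. Its EZH2i difference of 1.02 was beyond the spread.

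The spindle checkpoint genes were all lower in CDK2i and higher in EZH2i than in vehicle. BUB1, a kinase that recruits checkpoint proteins to kinetochores, was at 5.50 FPKM in the vehicle tumor, 4.88 with CDK2i and 12.9 with EZH2i. BUB1B, which encodes the APC/C inhibitor BUBR1, was at 6.43, 4.68 and 14.6 FPKM. TTK, the MPS1 kinase at the head of the checkpoint, was at 4.03, 2.54 and 10.5 FPKM, with the largest EZH2i difference of the 4 genes at 1.38. MAD2L1, the MAD2 protein that captures CDC20, was the most abundant at 26.5, 19.1 and 37.6 FPKM and had the smallest, 0.51. In CDK2i the differences of the 4 ran from −0.67 for TTK to −0.17 for BUB1, all within their spreads. BUB1, BUB1B and TTK were below the minimum in vehicle and CDK2i and were called higher in EZH2i.

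The chromosomal passenger complex corrects faulty attachments and later acts at the midzone. AURKB, its Aurora B kinase, was among the most abundant of the 45 genes at 81.1 FPKM in the vehicle tumor, 42.1 with CDK2i and 102 with EZH2i. Its difference of −0.95 in CDK2i was beyond its spread of 0.69 and just short of the fold threshold, while its EZH2i difference of 0.33 was the smallest of the set. CDCA8, which encodes borealin (chromosome 1 of GRCh37, 38158153 to 38175391), was at 16.2, 7.28 and 30.8 FPKM, with differences of −1.16 (counting interval −1.35 to −0.97) and 0.92. BIRC5, which encodes survivin, was low at 3.19, 2.85 and 5.45 FPKM, with a CDK2i difference of −0.16 whose counting interval, −0.45 to 0.12, held 0. The levels of AURKB and CDCA8 in CDK2i lay further below vehicle than that of BIRC5.

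The 7 kinesins, motor proteins that move along microtubules, had a median difference of −0.40 in CDK2i and 1.30 in EZH2i. KIF14, a motor of the midzone and of cytokinesis, was at 2.15 FPKM in the vehicle tumor, 2.36 with CDK2i and 9.38 with EZH2i. Its EZH2i difference of 2.13 (counting interval 1.93 to 2.32, spread 1.04) was the largest of the 45 genes, from a vehicle level below the expression minimum. KIF18A, which damps chromosome movements at the metaphase plate, was at 4.79, 1.77 and 10.9 FPKM, with −1.44 in CDK2i and 1.18 in EZH2i. Its vehicle and CDK2i values were below the expression minimum, so it could not be called lower in CDK2i. KIF2C, the microtubule depolymerase MCAK, was at 22.2, 12 and 37.6 FPKM, and its CDK2i difference of −0.89 was beyond its spread of 0.71. KIF11, the Eg5 motor that pushes the poles apart, was at 6.53, 4.96 and 17.1 FPKM. KIF23, a component of centralspindlin, was at 9.47, 7.32 and 25.8 FPKM. KIF20A, which carries Aurora B to the midzone, was at 13.3, 13.9 and 24.8 FPKM and so differed little between vehicle and CDK2i. KIF15, which can share the work of Eg5, was at 2.18, 1.64 and 5.36 FPKM.

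All 7 kinetochore and centromere genes were lower in CDK2i and higher in EZH2i than in vehicle. CENPA, the histone H3 variant that marks centromeres, was at 9.43 FPKM in the vehicle tumor, 4.28 with CDK2i and 16.2 with EZH2i, with differences of −1.14 (counting interval −1.42 to −0.86) and 0.78. The NDC80 complex, which grips microtubules, has 4 subunits. NDC80 (chromosome 18 of GRCh37, 2571556 to 2616634) was at 9.79, 4.81 and 22.3 FPKM, and its CDK2i difference of −1.03 was just past the fold threshold. NUF2 was at 13.1, 9.63 and 23.3 FPKM. SPC24 was at 12.1, 9.14 and 20.3 FPKM, and SPC25 at 9.59, 7.79 and 16.2. These other subunits stayed nearer to vehicle in CDK2i, NUF2 at −0.44, SPC24 at −0.41 and SPC25 at −0.30. In EZH2i NDC80 was higher by 1.18, and the others by 0.84, 0.74 and 0.76. CENPE, a kinesin that moves chromosomes to the plate, was at 2.69, 1.46 and 7.16 FPKM, below the minimum in all 3 tumors. CENPF, a large protein of the outer kinetochore, was at 11, 7.99 and 31.9 FPKM, with 1.53 in EZH2i.

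The 5 genes of spindle assembly had a median of −0.20 in CDK2i, and were each higher in EZH2i by 0.82 or more. TPX2, the activator of Aurora A, was at 26.5 FPKM in the vehicle tumor, 17.1 with CDK2i and 46.8 with EZH2i, a CDK2i difference of −0.63 against the −2.01 of AURKA. ASPM, a protein of the spindle poles, was at 4.49, 3.58 and 17 FPKM, and its EZH2i difference of 1.92 was next to that of KIF14. DLGAP5, which stabilizes kinetochore fibers, was at 12.7, 11.7 and 30.8 FPKM. NUSAP1, which bundles spindle microtubules, was at 23.3, 25.7 and 48.3 FPKM. HMMR, which binds the spindle poles, was at 5.61, 4.87 and 12.7 FPKM.

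Of the genes of chromosome structure, MKI67, which encodes the proliferation marker Ki-67 that coats mitotic chromosomes, was at 8.35 FPKM in the vehicle tumor, 6.01 with CDK2i and 23.8 with EZH2i. Its differences were −0.47 and 1.51 (spread 0.74). TOP2A, the topoisomerase that untangles sister DNA, was at 27.2, 22.7 and 66.1 FPKM, with −0.26 and 1.28. CDCA2, which brings a phosphatase back to chromatin at mitotic exit, was at 3.74, 1.19 and 7.68 FPKM. Its CDK2i difference of −1.65 (counting interval −2.03 to −1.29, spread 1.10) was exceeded in size only by that of AURKA among the 45 genes, but all 3 values were below the expression minimum.

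The 4 genes of the APC/C pathway had the smallest median EZH2i difference of the 9 role groups, 0.60. With the trend in GC content and length, described further on, removed, their median was 1.06, the largest of the 9, so the place of this group depended on the processing. CDC20, the activator of the APC/C, was the most abundant of the 45 genes in every tumor, at 84.7 FPKM in the vehicle tumor, 74.8 with CDK2i and 133 with EZH2i. UBE2C, the ubiquitin-conjugating enzyme of the APC/C, was at 65.3, 50.7 and 94.9 FPKM. PTTG1, the securin that the APC/C destroys at anaphase, was at 30.3, 29.7 and 40.5 FPKM, with a CDK2i difference of −0.03 and the smallest gap between the inhibitor tumors, 0.45. CDCA3, a factor of mitotic entry that is itself degraded by the APC/C, was at 17.9, 11.9 and 28.8 FPKM.

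The cytokinesis genes stood near vehicle in CDK2i, with a median difference of 0.00, and well above it in EZH2i, with a median of 1.22. ECT2, which activates RhoA at the cleavage furrow, was at 12.8 FPKM in the vehicle tumor, 16.3 with CDK2i and 34.5 with EZH2i. Its CDK2i difference of 0.34 had a counting interval of 0.24 to 0.45 and lay within its spread of 0.71. ANLN, the ring scaffold anillin, was at 6.88, 7.07 and 19.4 FPKM. PRC1, which crosslinks midzone microtubules, was at 13.7, 13.3 and 26.8 FPKM. RACGAP1, the partner of KIF23 in centralspindlin, was at 11.3, 8.63 and 22.8 FPKM. The 6 genes that were higher in CDK2i than in vehicle were ECT2, ANLN, KIF14, KIF20A, NUSAP1 and FOXM1. None was beyond its spread, and 2 of the 45 stayed above vehicle when sums that leave out ribosomal protein genes and the mitochondrial genome were made equal.

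The EZH2i differences ran with properties of the transcripts. The 45 genes had a median GC content of 43.1% (range 35.1% to 59.1%), against 49.8% over 10269 expressed genes with an annotated transcript, and a median transcript length of 3016 nucleotides against 3075. Across the 45 genes the Spearman correlation of the EZH2i difference was −0.65 with GC content and 0.73 with length, and across the 10269 expressed genes it was −0.58 and 0.49. All points share the same pair of libraries, and GC content and length are related to each other. In CDK2i the values over the 45 genes were −0.04 and 0.20. The 15 shortest transcripts, with a median length of 1649 nucleotides, had a median EZH2i difference of 0.74, and the 15 longest, with 5016 nucleotides, one of 1.41.

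With the trend over all expressed genes removed, a polynomial in GC content and log length, the 45 genes became more alike. The median EZH2i difference went from 1.02 to 0.86, and the SD over the genes from 0.41 to 0.24. The shortest and longest transcripts then had medians of 0.88 and 0.89. AURKB moved from 0.33 to 0.84, CDC20 from 0.66 to 1.12 and PLK1 from 0.74 to 1.11, while KIF14 moved from 2.13 to 1.49 and ASPM from 1.92 to 1.20. Of the 10269 expressed genes, 7269 were higher in EZH2i with the trend removed, with a median of 0.22. Of the 45 genes 44 stayed higher, and MAD2L1 was at −0.05. The number called higher went from 21 to 11, of which 6 were called both ways (NEK2, FOXM1, KIF14, KIF23, ASPM and MKI67). Over all genes above the minimum the share called higher went from 8.93% to 3.85%, and over the 40 of the 45 genes above it from 52.5% to 27.5%. PLK1, CDCA8, CDC20, UBE2C and CDCA3 were called with the trend removed only. The trend moved the CDK2i differences little, with a median of −0.44 in place of −0.41, and there AURKA, CDCA8 and CENPA stayed called and NDC80 did not, against 7.01% of all genes called lower. Between the inhibitor tumors 7524 of the 10269 expressed genes were higher in EZH2i, with a median of 0.37. All 45 genes stayed higher there, with a median of 1.27. Of the 45, 31 were called, 29 of them the same as before, against 15.8% of all genes. The part of RNA quality or library preparation in the trend was not tested.

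**Figure D3:**
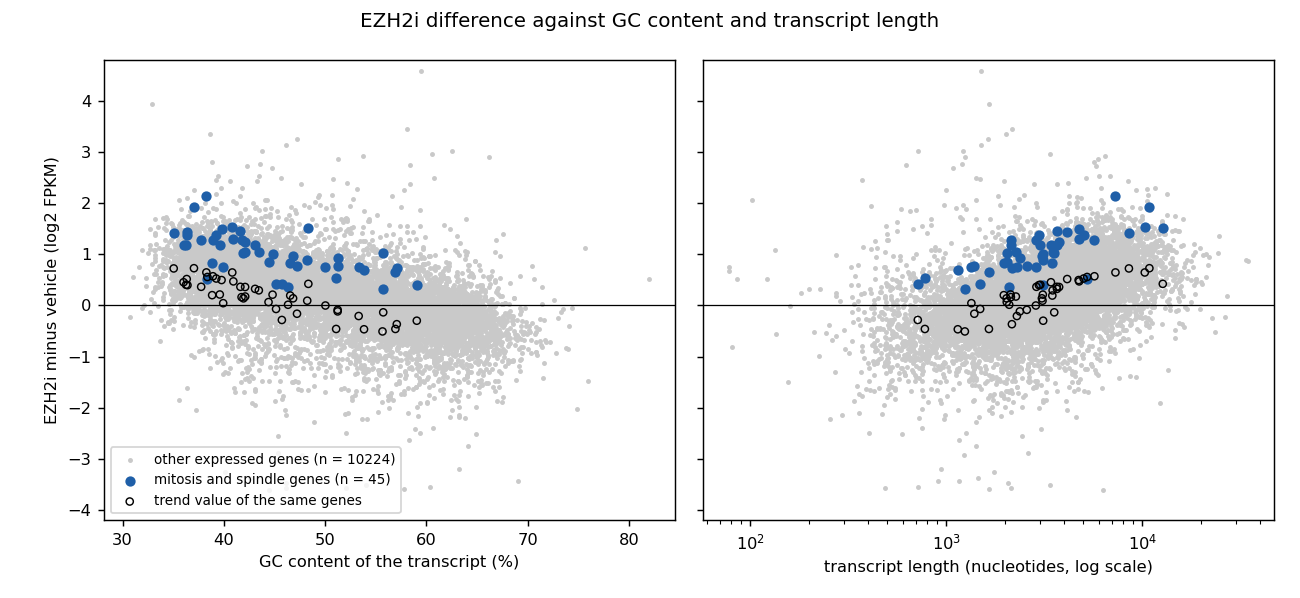
Difference between the EZH2i and vehicle tumors (y axis, log2 FPKM) against GC content (left, %) and length (right, nucleotides, log scale) of the transcript, 1 library each. Grey points are the other expressed genes, blue points the 45 mitosis and spindle genes and open circles the trend value of those 45. The blue points follow the slope of the grey ones and 44 of them lie above their own open circle. The trend does not hold the overall shift between the tumors, and of all 10269 expressed genes 7269 lie above their trend value.

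Other genes of mitosis, taken from lists and not from the 45, were examined in the same way. The 25 other mitotic regulators had a median difference of −0.69 in CDK2i, with 5 of the 17 above the minimum called lower and 0 higher, and 0.90 in EZH2i, with 8 of 22 called higher and 0 lower, beside 8.07% and 8.93% of all genes. TROAP, a spindle-associated protein, was furthest below vehicle in CDK2i, at 4.53 FPKM against 24.3, and was at 44.9 in EZH2i. CKS2, a small partner of the CDKs, was at 275, 84.6 and 169 FPKM and was the only one of the 25 below vehicle in EZH2i. Of 21 other kinetochore and centromere genes, 18 were lower in CDK2i and 18 higher in EZH2i, with medians of −0.46 and 0.61. Of all expressed genes 58% and 61.5% were. In CDK2i 4 of the 14 above the minimum were called lower and 0 higher, and in EZH2i 4 of 19 higher and 0 lower. With the trend in GC content and length removed, the EZH2i median was 0.52 for this list and 0.81 for the 25 other mitotic regulators. HJURP, the chaperone that loads CENPA, was at 10.5, 2.45 and 20.2 FPKM, with −2.11 in CDK2i and 0.94 in EZH2i, in the same order as CENPA.

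The remaining lists lay closer to vehicle in CDK2i, where the median was −0.05 over 10 other kinesins, 0.09 over 8 other checkpoint genes, −0.08 over 8 condensin genes, −0.19 over 12 cohesin genes and −0.10 over 17 APC/C genes. In EZH2i the same lists had medians of 0.86, 0.89, 0.91, 1.04 and 0.28, and of 0.53, 0.75, 0.55, 0.59 and 0.30 with the trend removed. In CDK2i 1 of the 7 cohesin genes above the minimum was called, or 14.3%, beside 8.07% of all genes called lower. It was ESPL1, the separase that opens the cohesin ring, which was lower at 6.05 FPKM against 14.2 in vehicle. The other 4 lists had 0 calls in CDK2i. The calls in EZH2i were all upward, 3 of the 9 other kinesins above the minimum, 4 of 7 checkpoint, 3 of 8 condensin, 6 of 9 cohesin and 2 of 14 APC/C genes, beside 8.93% of all genes. These lists are short, and the 14.3% of the APC/C list in EZH2i and of the cohesin list in CDK2i lay near the background. The differences between these lists and the 45 genes were not tested.

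**Figure D4:**
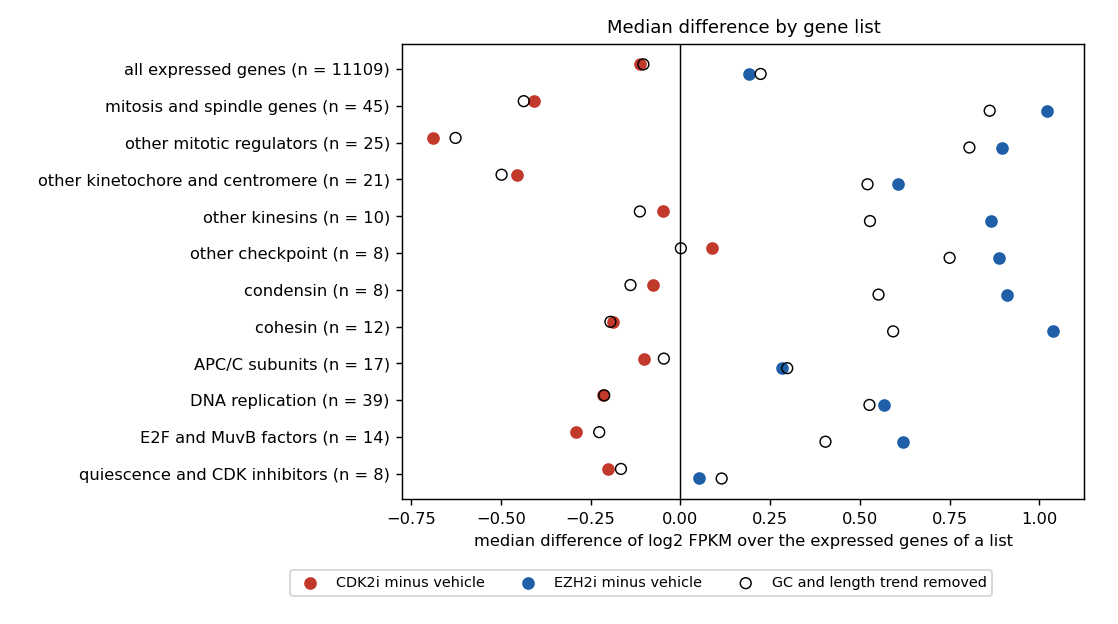
Median difference from vehicle on the x axis (log2 FPKM) over the expressed genes of each list, in CDK2i (red) and EZH2i (blue), 1 library each. Open circles show the medians once the trend was removed, and n is the number of expressed genes. The 45 genes lie at −0.41 and 1.02, and all expressed genes at −0.11 and 0.19.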

How the data were processed

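RNAseq was done on 3 SUM-149 xenograft tumors, 1 library each for vehicle, CDK2i and EZH2i. The authors deposited log2 FPKM values per gene symbol. Per the labels, CASAVA and STAR were used with the hg19 build, and the counting tool, gene lengths and treatment of mouse reads are not given in the sources used here. A value of −9 was taken as an FPKM of 0. The limma p-value that the study names was not repeated, since 1 library per condition allows no test.

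Differences of log2 FPKM were computed without a pseudocount. The fold and expression thresholds follow the study. Depth was found as the densest step of low FPKM values times exon length, within a tolerance of 0.01 fragments. Fragment numbers of single genes are approximate, because the exon lengths came from GENCODE 44 on GRCh37, the build of the deposited values, and not from the authors. GC content and length came from 1 transcript per gene (92.4% of expressed genes, and all 45 genes here). Symbols not in GENCODE were matched through RefSeq synonyms (699 expressed genes). The trend was a polynomial of degree 3 in each property, fitted over 10186 expressed genes without ribosomal protein genes. The median of the fitted values over those genes was subtracted from it, so its removal left the overall shift between the tumors in place. Promoters are those of RefSeq on GRCh38.p14, a build used for them only.

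The genes described and all lists were chosen with earlier results of these data known. By rule, values in every tumor were given for genes past the thresholds in any comparison, for the extremes of each role group and for FOXM1, MKI67, TOP2A, CCNB1, CDC20, PLK1, AURKA and AURKB. KIF15 and UBE2C were added after their values were seen. Of other lists, ESPL1 and HJURP are extremes or lone calls. The alternatives were pseudocounts of 1 and 0.1, expression minimums of none, 1 and 5 on the log2 FPKM scale, folds of 1.5 and 3, 3 other scalings and removal of the trend. Tested on simulated data for EZH2i against vehicle, 200 of 200 changed genes among 10186 were recovered with 0 false calls. This checks the running of the code only. How accurate the calls in the measured tumors are was not tested. Python 3.11.15, numpy 2.4.6, pandas 2.3.3, scipy 1.17.1 and matplotlib 3.10.9 were used.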

Additional observations from a re-analysis of the deposited data

How the results depend on the processing

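No paired analysis was possible because each condition has 1 library, and for the same reason no library could be left out. For the 45 genes as a whole, the median stayed below 0 in CDK2i and above 0 in EZH2i under every alternative. With each library centred on its median expressed gene the medians were −0.22 in CDK2i, 0.77 in EZH2i and 0.97 between the inhibitor tumors, with 1 gene called lower, 12 higher and 18 higher, while the shares of all genes called in these directions went from 8.07%, 8.93% and 17.5% to 5.17%, 3.86% and 6.39%. With equal summed FPKM the medians were −0.26 in CDK2i and 1.26 in EZH2i, with 2 called lower in CDK2i (5.48% of all genes). Without ribosomal protein and mitochondrially encoded genes in the sums, the median was −0.55 in CDK2i and 1.59 between the inhibitor tumors. With the trend in GC content and length removed, it was 0.86 in EZH2i, with 11 called higher (3.85% of all genes), and 1.27 between the inhibitor tumors. In CDK2i, 2 genes were called lower with a pseudocount of 1 (6.67% of all genes), 0 with an expression minimum of log2 FPKM 5, which 5 of the 45 passed (3.98%), 10 at a fold of 1.5 (18.8%) and 1 at a fold of 3 (2.41%). In EZH2i, 5 of the 15 that passed were called higher with a minimum of 5 (4.16% of all genes), 34 at a fold of 1.5 (24.5%) and 2 at a fold of 3 (1.43%), and between the inhibitor tumors 8 of 15 with a minimum of 5 (5.95%) and 15 at a fold of 3 (5.83%). Of 774 values of 43 single genes under the other pseudocounts, scalings and the removed trend, all moved by less than the gene's spread and none of the called ones changed sign. For the scalings this was fixed in advance, since each moves all genes by the same amount, which was below the lowest spread. It is therefore no measure of how stable the calls are. The changes in count with threshold or minimum follow from fewer or more genes being able to pass. Those with a scaling, a pseudocount or the trend removed follow from the amounts by which these settings moved the values. What lies behind the trend was not tested. The lowest of the 45 held 84 fragments. The counting interval of the difference from vehicle left out 0 for 45 genes in EZH2i and 36 in CDK2i. For CDCA8, CENPA and NDC80 in CDK2i it held the fold threshold (−1.35 to −0.97, −1.42 to −0.86 and −1.23 to −0.83). That of AURKA did not (−2.21 to −1.82). In EZH2i it held the threshold for CCNB1 (0.93 to 1.11), among others. Calls near the threshold could thus change by counting error alone, and the missing replicates leave every difference without its error.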

Other observations

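The genes of the phases before mitosis were measured in the same tumors. Over 39 DNA replication genes, which build and fire the replication forks of S phase, the median difference from vehicle was −0.22 in CDK2i and 0.57 in EZH2i, with 31 lower in CDK2i and 36 higher in EZH2i. Calls were near the background, with 3 of the 26 genes above the expression minimum lower in CDK2i (11.5%, against 8.07% of all genes) and 3 of 34 higher in EZH2i (8.82%, against 8.93%). CDC6, which loads the MCM helicase, was furthest below vehicle in CDK2i, at 1.74 FPKM against 6.05, and was at 9.75 in EZH2i. RRM1, a subunit of ribonucleotide reductase, was furthest above vehicle in CDK2i, at 10.9, 17.4 and 21 FPKM in vehicle, CDK2i and EZH2i. MCM10, another replication factor, was at 2.72, 1.25 and 7.75 FPKM, and MCM7, a subunit of the helicase, at 117, 111 and 99.9 FPKM.

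Over 14 genes of E2F and MuvB factors and their partners, CDK2i had a median of −0.29 and EZH2i one of 0.62. The list mixes activators of cell cycle transcription with repressors such as RB1, RBL1 and RBL2. RB1 was furthest above vehicle in both treated tumors, at 3.79, 6.05 and 9.90 FPKM in vehicle, CDK2i and EZH2i. E2F3 was at 6.70 FPKM in the vehicle tumor, 2.66 with CDK2i and 14.2 with EZH2i, while E2F1, the only one of the 14 below vehicle in EZH2i, was at 35.1, 22 and 28.3 FPKM. Of 8 expressed genes of quiescence and CDK inhibition, the antiproliferative BTG2 was called higher in CDK2i, at 27.3 FPKM against 13 in vehicle and 12.7 in EZH2i. The CDK inhibitor gene CDKN1B was called lower in CDK2i, at 6.25 FPKM against 17.9 in vehicle and 19.8 in EZH2i. Each of these calls was 1 of the 7 genes above the minimum in that pair, beside 3.27% of all genes called higher and 8.07% lower. None of these values has a replicate.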
